A study of Mus musculus with 12 samples.

Results

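The genes described here are 52 genes of mitosis, chosen by symbol from what their proteins do, among 25230 genes counted by RNA-seq in cultured mouse mesangial cells (MMC). They fall into 8 groups by role: the spindle checkpoint, mitotic kinases with the chromosomal passenger complex, centromere and kinetochore proteins, mitotic kinesins, the cyclin-CDK1 engine with anaphase control, condensin with topoisomerase, spindle assembly with cytokinesis, and 2 proliferation markers. MMC are the contractile cells between the capillaries of the glomerulus. Wild-type (WT) cells and cells of the lncMGC-KO5 line were compared, in serum depletion (SD) and with TGF-β (24 h at 10 ng/ml), which gave the groups KO-SD, KO-TGF, WT-SD and WT-TGF with 3 libraries each. The KO5 line was made by Cas9 editing of C57BL/6J embryos near the start of lncMGC, a long non-coding RNA that hosts a microRNA cluster, and its homozygotes came from crosses of heterozygotes. The cells were primary cultures from pooled glomeruli, kept in medium with fetal bovine serum. The number of mice per genotype is not given in the sources used here, so p-values measure the spread between libraries, which may be technical, and genotype cannot be told apart from culture.

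In a dividing cell, CDK1 bound to cyclin A or B drives entry into mitosis, condensin and topoisomerase II shape the chromosomes, and kinetochores built on centromeric chromatin hold them to spindle microtubules. The spindle checkpoint delays anaphase until every kinetochore is attached, and the anaphase-promoting complex then marks cyclin B and securin for degradation. Many of these genes are transcribed late in the cycle through promoters that bind the DREAM and MuvB complexes with MYBL2 and FOXM1, so their mRNA is low in resting cells. TGF-β is known to slow the growth of many epithelial and mesenchymal cell types. In bulk RNA, fewer cells in a late cycle phase and less RNA per cell cannot be told apart.

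The libraries held between 19898050 and 22827706 counts on genes. lncMGC is not among the genes counted, and Mirg, a transcript of the same microRNA region, had 2.1 to 2.64 CPM (counts scaled to a common library size by the trimmed mean of M values, TMM) in WT-SD and 3.32 to 4.31 CPM in the libraries labelled KO-SD, so the deletion could not be checked here. With TGF-β Mirg had 3.46 to 3.76 CPM in WT-TGF and 3.69 to 4.7 CPM in KO-TGF. The study reported less Mirg in KO5 than in WT cells by RT-qPCR, and these counts do not show that. By RT-qPCR it also reported no lncMGC in KO5 cells and less of the neighboring Dlk1, Meg3 and Rian. Those neighboring genes were not read here. Of the 8 mesangial markers, 7 exceeded 1 CPM in WT-SD against 6 in KO-SD. Of the 6 tested (FDR <5%, test given below), 5 were higher in KO-SD than in WT-SD and 1 was lower, with a median log2 of 0.63. Of all genes tested, 35.6% were higher and 21.5% lower there. In KO-TGF against WT-TGF 4 of the 6 were higher and 2 lower, against 28.9% and 26.3% of all genes tested. Thy1 had 0.0542 CPM at most in any library, and Des had 7.53 ± 0.919 CPM in WT-SD, 5.64 ± 0.489 in WT-TGF, 0.53 ± 0.024 in KO-SD and 0.25 ± 0.109 in KO-TGF (SD, n = 3 here and below). Within groups, 12 library pairs had a chi-square over degrees of freedom of 1.35 to 5.0, where counting noise alone gives a value near 1. The KO-SD pairs had 5.0, 4.16 and 2.57, and no pair of another group exceeded 2.09.

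Mitotic mRNA was most abundant in KO-SD and least abundant in WT-TGF. The 52 genes together had 438 to 508 CPM in the WT-SD libraries, 225 to 234 CPM in WT-TGF, 1466 to 1503 CPM in KO-SD and 322 to 331 CPM in KO-TGF. The ranges did not overlap between any pair of groups. The mean log2 CPM over the 52 genes was 2.48 ± 0.12 in WT-SD, 1.27 ± 0.06 in WT-TGF, 4.25 ± 0.04 in KO-SD and 1.87 ± 0.02 in KO-TGF (SD, n = 3). The group means ran in the order KO-SD, WT-SD, KO-TGF, WT-TGF for 43 of the 52 genes, against 6.1% of all genes with a count. In 29 of the 43 no library crossed into the next group, and the share of all genes without such crossing was not counted. Per exon length, Smc4, a condensin subunit, had the highest level of the 52 in each group (RPKM, CPM per kilobase of exon), from 9.21 ± 0.241 RPKM in WT-TGF to 19.8 ± 0.734 RPKM in KO-SD. Top2a came next in KO-SD with 15.8 ± 0.182 RPKM and Pttg1 next in WT-SD with 10.2 ± 1.27 RPKM.

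**Figure D1:**
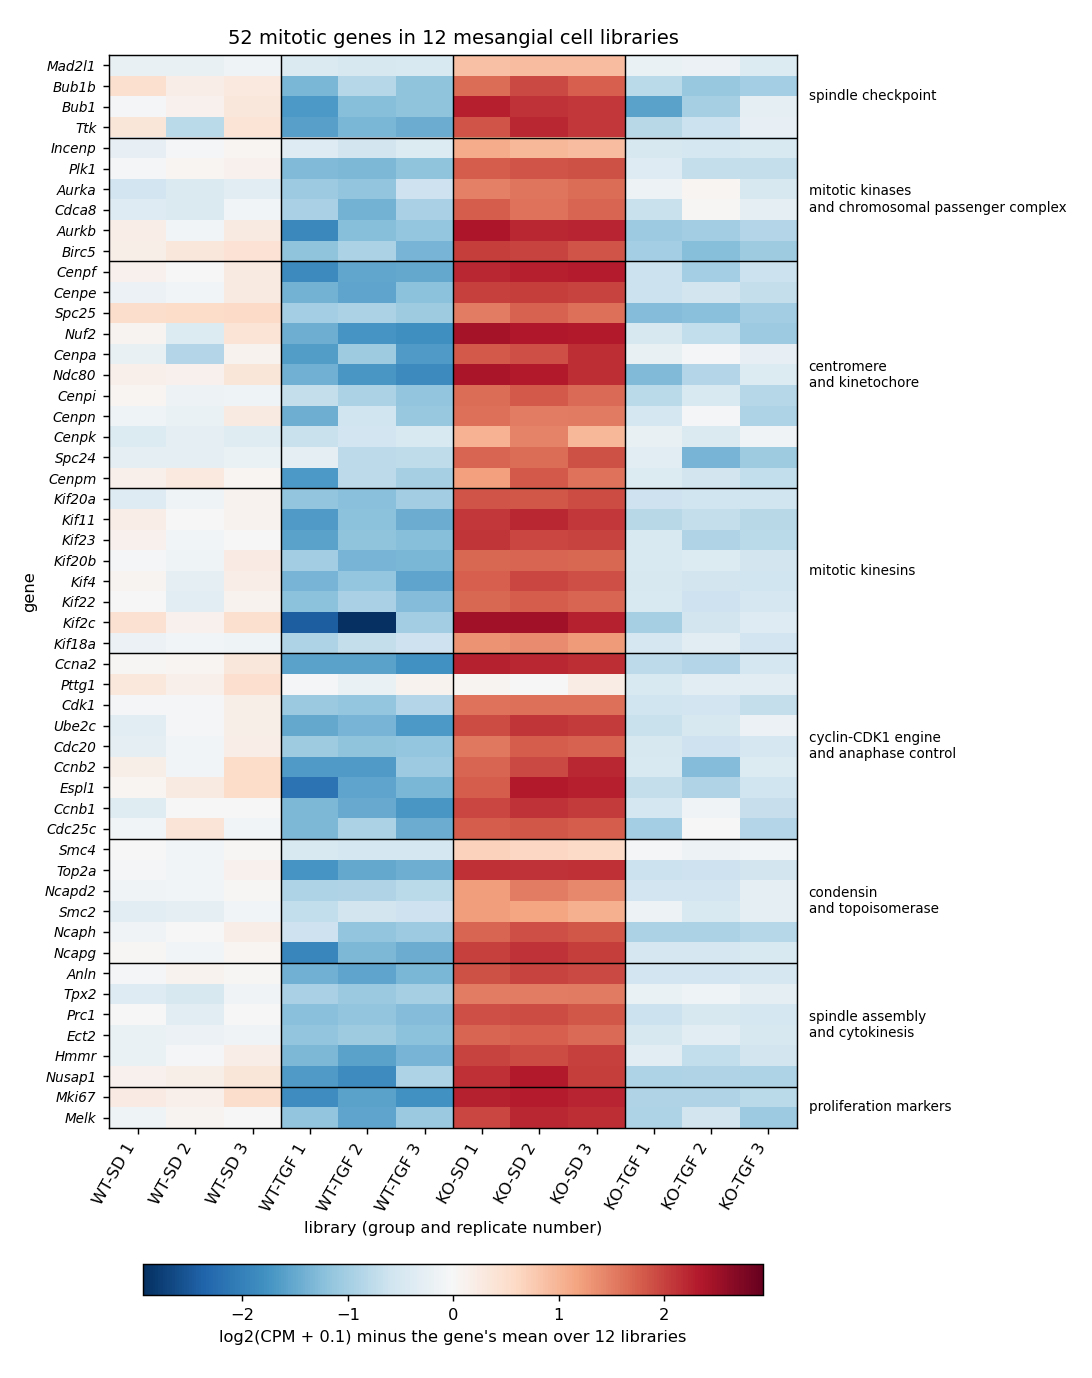
Log2(CPM + 0.1) of the 52 genes (rows, by role) in the 12 libraries (columns), with each gene's mean over the libraries subtracted; red is above that mean and blue below. KO-SD is red in nearly every row and WT-TGF blue, while the row of Pttg1 stays pale.

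Mitotic mRNA was lower with TGF-β in WT cells. Of the 50 genes with RPKM >1 in at least 1 library, 48 fell in WT-TGF and 0 rose at FDR <5% (edgeR's quasi-likelihood test over all genes, Benjamini-Hochberg adjustment), against 33.4% of all 11478 genes tested that fell. With a fold change >2, 36 fell, against 5.33% of all genes. The median of the 50 genes was a log2 fold change of -1.38, or 38.3% of the WT-SD level, where the median of all genes was 0.03. In the fit of all 18565 genes with a count, which held every one of the 52, 50 fell, against 25.8% of all genes. The exceptions in both fits were Cenpk and Spc24, kinetochore genes near 1 CPM. Every WT-SD library lay above every WT-TGF library for 51 of the 52 genes, as for 27.8% of all genes with a count.

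In the libraries labelled KO, mitotic mRNA was lower with TGF-β as well. All 50 genes tested fell in KO-TGF, against 37.8% of all genes tested, and 48 of them fell with a fold change >2, against 8.82%. The median log2 fold change was -2.50, which left 17.6% of the KO-SD level. In the fit of all genes with a count 52 of 52 fell, against 28.5% of all genes, and for each of the 52 every KO-SD library lay above every KO-TGF library, as for 29.8% of all genes with a count.

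The difference between the responses was tested itself, as the KO response minus the WT response. It was negative for 44 of the 50 genes at FDR <5% and positive for 0, against 18.7% of all genes tested that were negative, and 38 were below -1 on the log2 scale, against 2.54%. The median difference was -1.15, beside -0.05 for all genes. Passing the RPKM limit through KO-SD alone, as 19 of the 50 genes did, favored a negative difference and a larger fall in KO. In the fit of all genes with a count 48 of 52 were negative, against 12.5% of all genes. The 6 genes that did not pass among the 50 were Ttk, Cenpm, Kif2c, Ccnb2, Pttg1 and Espl1, whose estimates were all negative, from -0.12 to -1.02. The plot of both responses shows each gene below the line of equal response.

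**Figure D2:**
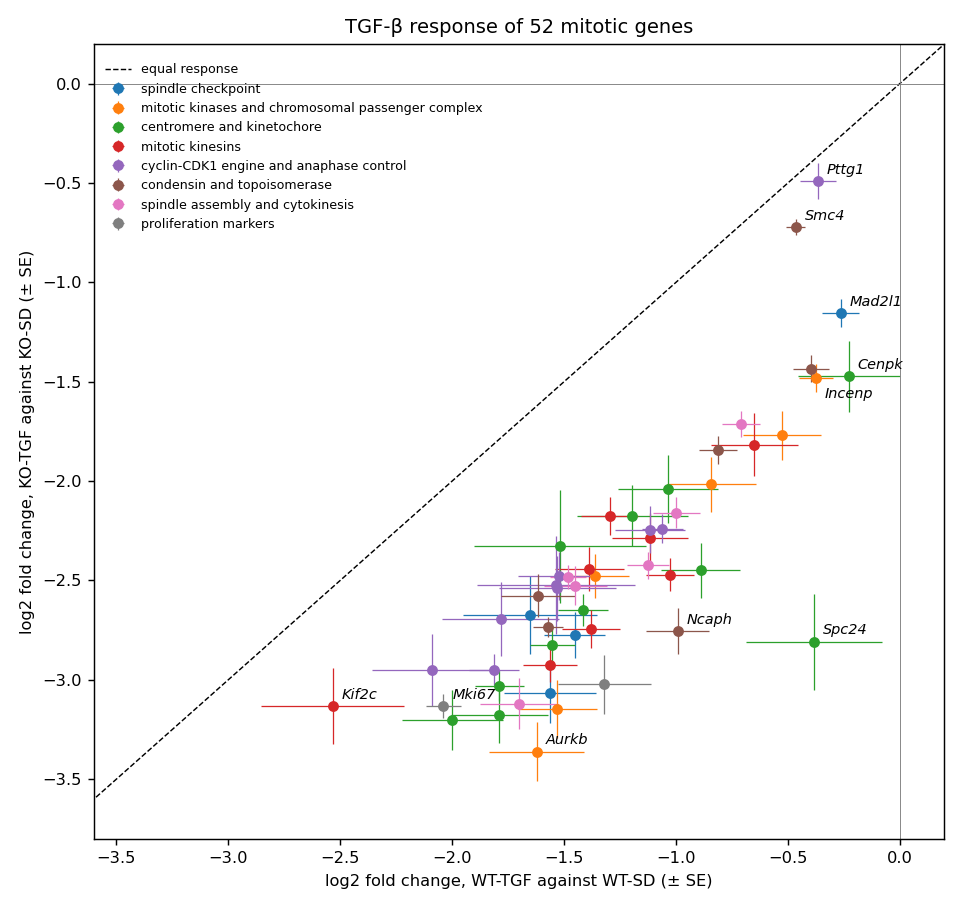
Log2 fold change with TGF-β in WT (x axis) and in KO (y axis) for the 52 genes, colored by role, with standard errors as bars; Cdc25c and Kif18a come from the fit of all genes with a count. The dashed line marks equal responses, and Pttg1 and Smc4 lie nearest to it.

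Between genotypes, the genes were higher in the libraries labelled KO, most of all in serum depletion. In KO-SD 49 of the 50 genes were higher than in WT-SD, against 35.6% of all genes tested, and 48 of them had a fold change >2, against 3.35% of all genes. The median was 3.83-fold (log2 1.94), where that of all genes was 0.05 on the log2 scale. Since 19 of the 50 genes reached RPKM >1 in KO-SD libraries and in no other, passing the limit favored a higher value in KO-SD. The fit of all genes with a count does not depend on that limit: 51 of 52 were higher, against 23.4% of all genes, with a median log2 fold change of 1.90. Among the 31 genes that reached RPKM >1 in WT-SD itself, 30 were higher in KO-SD, with a median of 3.55-fold. Every KO-SD library lay above every WT-SD library for 51 of the 52 genes, as for 26% of all genes with a count.

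With TGF-β the genotype difference was smaller, as the test of the responses above measures. In KO-TGF 35 of the 50 genes were higher than in WT-TGF, against 28.9% of all genes tested, and 7 had a fold change >2, against 1.47%. The median log2 fold change was 0.69, or 1.61-fold. The fit of all genes with a count gave 37 of 52, against 18.7% of all genes. The 14 genes without a call in either direction were Bub1, Bub1b, Mad2l1, Aurkb, Incenp, Birc5, Cenpi, Cenpk, Cenpm, Cenpn, Spc24, Spc25, Ncaph and Melk, 6 of them from the centromere and kinetochore group. Every KO-TGF library lay above every WT-TGF library for 40 of the 52 genes, as for 22.1% of all genes with a count. For 39 of the 52 every WT-SD library also lay above every KO-TGF library, as for 33.2%.

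Pttg1, which encodes securin, the inhibitor of separase, was the 1 gene called lower in KO in both conditions. The call in KO-SD was lost without WT-SD replicate 3 or KO-SD replicate 2, and the WT-SD and KO-SD libraries overlapped. In KO-SD against WT-SD 21.5% of all genes tested were lower, and in KO-TGF against WT-TGF 26.3%. In the fit of all genes with a count these shares were 17.9% and 20.3%, again with Pttg1 as the single one of the 52.

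**Figure D3:**
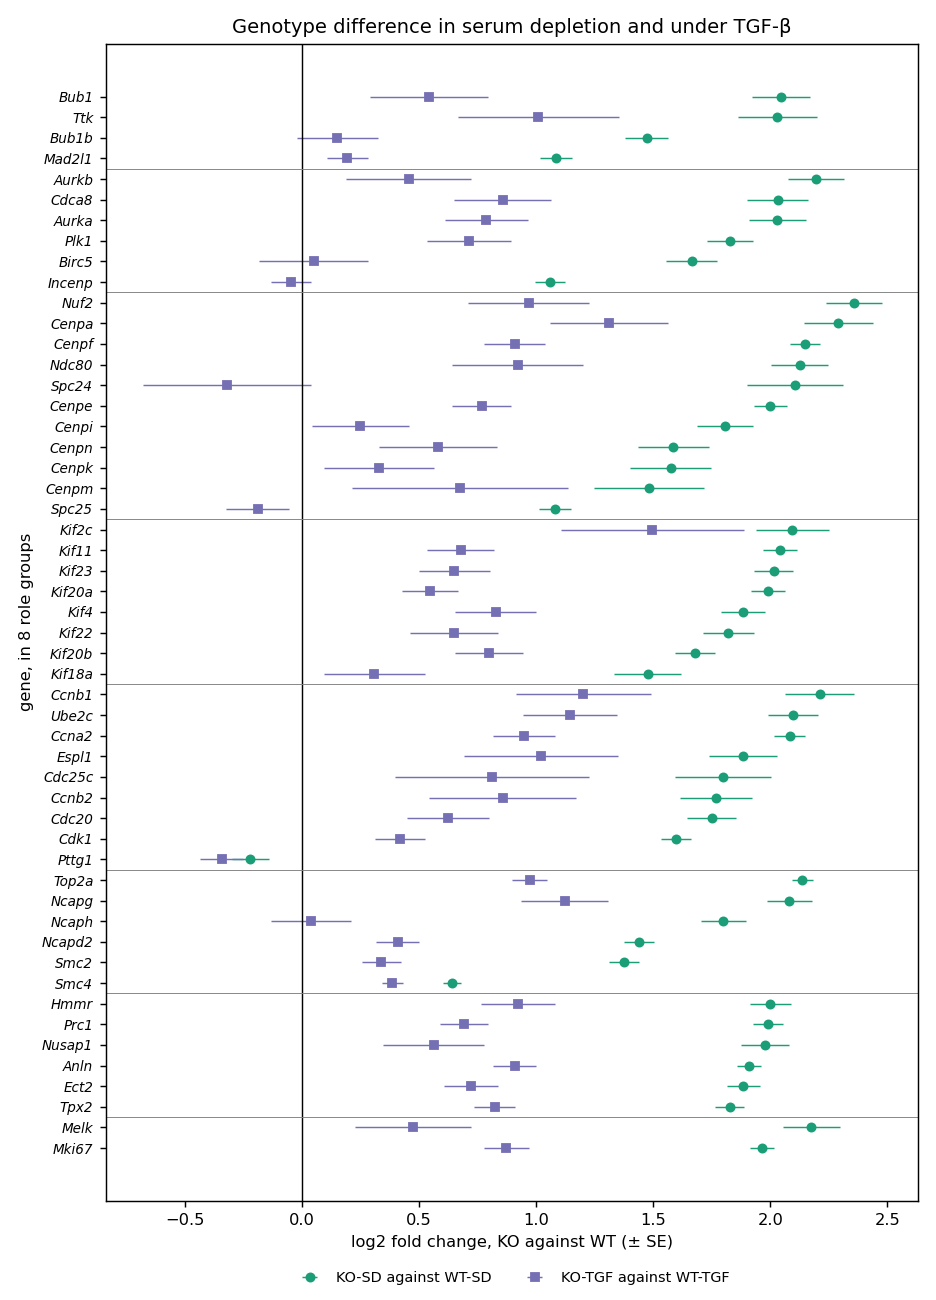
Log2 fold change of KO against WT with its standard error for each of the 52 genes, in serum depletion (green circles) and with TGF-β (purple squares), ordered by role group from the checkpoint genes at the top to the proliferation markers at the bottom. The circles of most genes lie right of 1.5 and the squares between 0 and 1.5, with the squares of Incenp, Spc24 and Spc25 below 0 and Pttg1 below 0 in both.

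Since the genes moved together, their promoters were searched for the letters of 2 elements of late cell cycle genes: the cell cycle homology region (CHR, here TTTGAA or TTCGAA on either strand), which MuvB complexes bind, and the CCAAT box on either strand, which NF-Y binds. RefSeq windows of 300 bases (250 before an annotated start and 50 after it, GRCm38.p6) were given for 44 of the 52 genes, not for Tpx2, Cdc25c, Smc4, Incenp, Ccna2, Spc24, Aurkb and Kif20a. A CHR run was in 32 of the 44 windows, or 72.7%, against 19.4% of 27025 genes with a window and 20% of 30 DNA replication genes. CCAAT was in 32, also 72.7%, against 37.9% of all and 63.3% of the replication genes. Both were in 28, or 63.6%, against 7.7% of all and 16.7% of the replication genes. Of 44 CHR runs in these windows, 30 lay within 50 bases of the annotated start. Printed are the windows of the 3 genes with the highest mean CPM among those with a CHR run, 5′ to 3′ on the gene's strand, with CHR and CCAAT runs in capitals. They are those of Mki67 (chr7:135716330-135716629, minus strand), Top2a (chr11:99024140-99024439, minus strand) and Ncapd2 (chr6:125191537-125191836, minus strand).
Mki67: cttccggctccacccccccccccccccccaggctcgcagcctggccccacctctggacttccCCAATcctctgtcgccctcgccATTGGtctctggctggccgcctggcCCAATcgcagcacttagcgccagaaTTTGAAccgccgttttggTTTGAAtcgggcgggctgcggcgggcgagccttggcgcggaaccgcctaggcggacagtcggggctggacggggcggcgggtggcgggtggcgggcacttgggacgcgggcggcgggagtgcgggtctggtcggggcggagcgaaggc
Top2a: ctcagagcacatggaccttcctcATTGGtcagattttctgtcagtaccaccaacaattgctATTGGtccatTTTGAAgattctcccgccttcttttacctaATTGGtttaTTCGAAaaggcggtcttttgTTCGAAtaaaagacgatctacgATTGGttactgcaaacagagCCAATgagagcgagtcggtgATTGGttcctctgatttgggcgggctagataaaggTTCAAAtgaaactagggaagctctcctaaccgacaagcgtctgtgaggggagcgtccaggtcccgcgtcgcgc
Ncapd2: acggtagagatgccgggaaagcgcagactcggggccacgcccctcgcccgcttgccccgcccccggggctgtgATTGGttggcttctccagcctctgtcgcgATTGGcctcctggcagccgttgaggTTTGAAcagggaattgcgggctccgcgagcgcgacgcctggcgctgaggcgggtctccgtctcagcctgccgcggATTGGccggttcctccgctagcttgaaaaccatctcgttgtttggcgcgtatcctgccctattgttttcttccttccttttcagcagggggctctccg

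The window of Top2a held 4 CHR runs and 6 CCAAT runs, that of Mki67 2 and 3, and that of Ncapd2 1 and 3. The start used for Ncapd2 lies 514 bases inside the annotated gene, whose counts also overlap the small RNA gene Scarna10 on the same strand, and for 6 of the 44 genes the start used was more than 100 bases from the gene's outer end. For Pttg1, whose window held neither element, it was 1482 bases away. The 32 genes with a CHR run differed by a median of 1.94 (log2) between KO-SD and WT-SD and the 12 without 1.80, and with TGF-β in KO the medians were -2.48 and -2.59. With TGF-β in WT they were -1.45 and -1.16, for KO-TGF against WT-TGF 0.79 and 0.32, and for the difference between responses -1.10 and -1.32. These splits were not tested. A run of letters does not show binding, and a window without it says nothing of the factor.

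**Figure D4:**
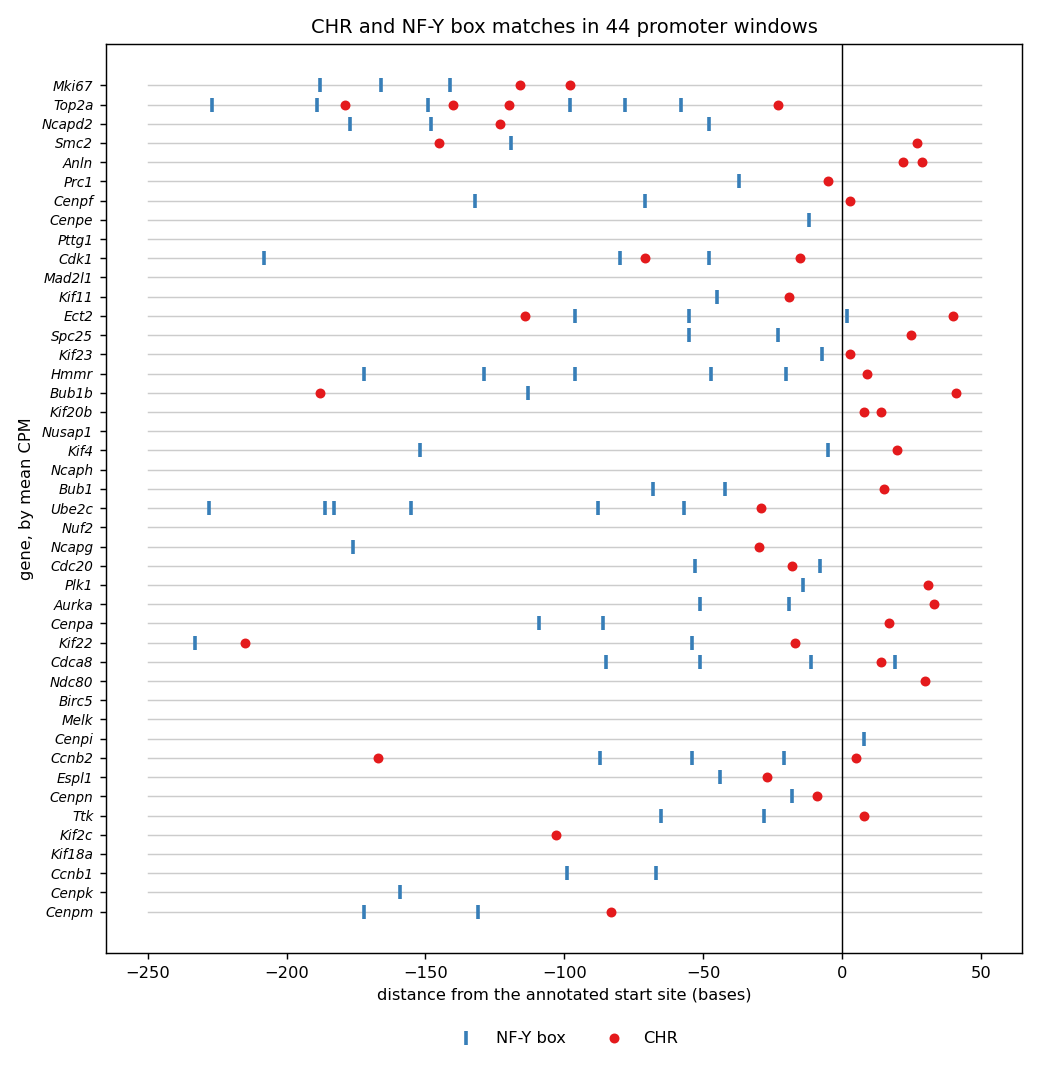
Position of CHR runs (red) and CCAAT runs, shown as NF-Y boxes (blue), relative to the annotated start (0, in bases, 5′ to the left) in 44 promoter windows. Of the 44 CHR runs 30 lie within 50 bases of the start, and the lines of Pttg1, Mad2l1, Nusap1, Ncaph, Nuf2, Birc5, Melk and Kif18a are empty.

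Among the proliferation markers, Mki67 encodes the Ki-67 protein that coats mitotic chromosomes and is absent from resting cells. It had 36.7, 34.4 and 44.1 CPM in the WT-SD libraries and 8.68, 10.4 and 8.91 CPM in WT-TGF. In KO-SD it had 149, 153 and 148 CPM, and in KO-TGF 16.7, 16.6 and 17.9 CPM. No library crossed into another group's range. Mki67 fell to 24.3% of its level in WT (log2 fold change -2.04, SE 0.0791, adjusted p = 2.49e-20) and to 11.4% in KO (-3.13, SE 0.0609, adjusted p = 3.75e-28). The KO response differed from that in WT by -1.09 on the log2 scale (SE 0.112, adjusted p = 4.34e-09). Melk, a kinase gene of dividing cells, had 2.52 ± 0.179 CPM in WT-SD, 1.01 ± 0.18 in WT-TGF, 11.4 ± 1.1 in KO-SD and 1.4 ± 0.291 in KO-TGF. It was 4.52-fold higher in KO-SD than in WT-SD (log2 2.18, SE 0.123, adjusted p = 8.27e-16). Melk passed the RPKM limit through KO-SD alone, which favored that difference. Between KO-TGF and WT-TGF its libraries did not overlap, and the log2 fold change of 0.47 had a 95% interval from -0.01 to 0.96.

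**Figure D5:**
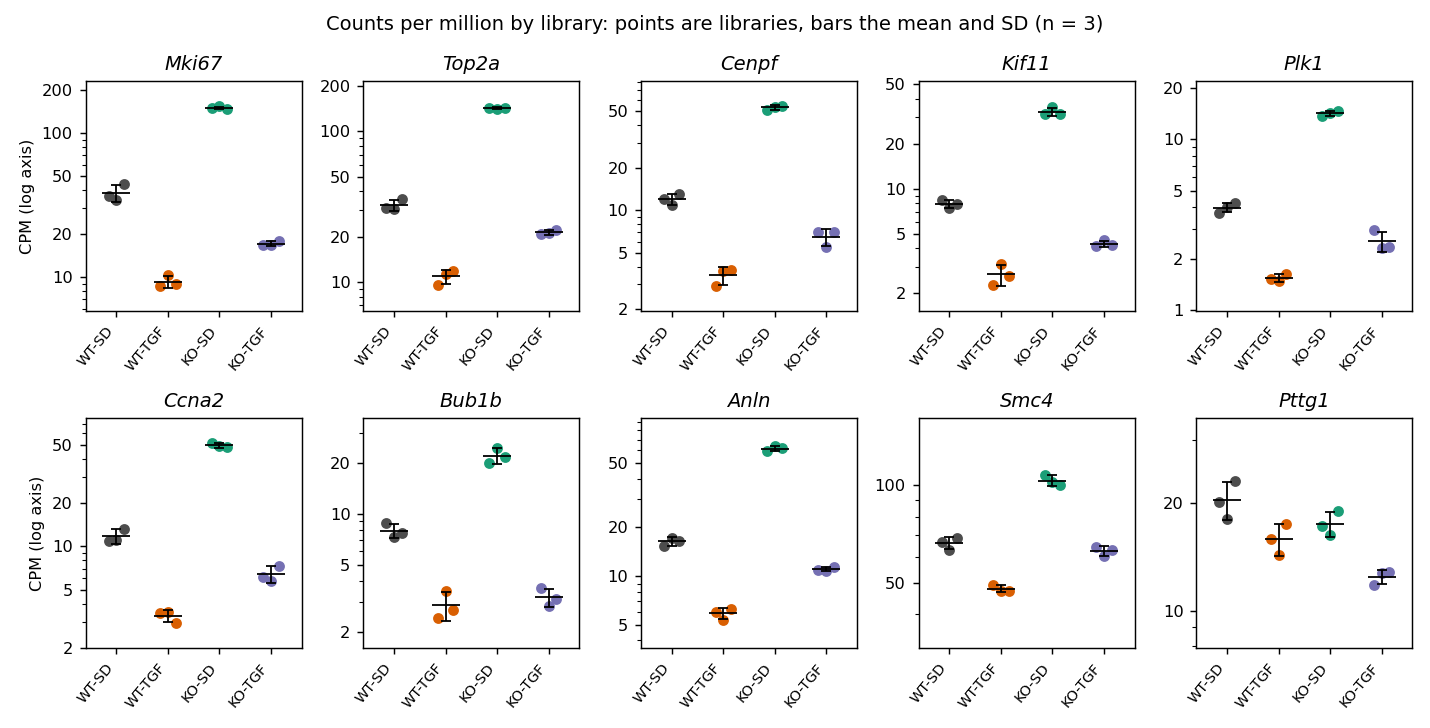
CPM on a log axis in the 3 libraries of each group for 10 of the genes, with the mean and SD as bars. Mki67, Top2a and Cenpf lie highest in KO-SD and lowest in WT-TGF with no shared range, and in the panel of Pttg1 the WT-SD and KO-SD libraries overlap.

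In the condensin and topoisomerase group all 6 genes fell in both genotypes, against 33.4% (WT) and 37.8% (KO) of all genes tested. All 6 were higher in KO-SD, against 35.6% of all genes, but the sizes ran from 1.56-fold for Smc4 to 4.4-fold for Top2a. Of the 6, 1 passed the RPKM limit through KO-SD alone, which favored a higher value there. Top2a encodes topoisomerase II alpha, which untangles sister DNA. It had 31.2, 30.6 and 35.3 CPM in WT-SD, 9.58, 11.2 and 11.9 in WT-TGF, 144, 140 and 143 in KO-SD and 20.8, 21.2 and 22.2 in KO-TGF. The 4 groups did not overlap. Smc4 encodes an ATPase subunit of condensin, as its partner Smc2 does. It had 66.6, 63.2 and 69 CPM in WT-SD, 49.4, 47.3 and 47.3 in WT-TGF, 108, 102 and 100 in KO-SD and 64.5, 60.4 and 63.2 in KO-TGF. WT-SD and KO-TGF overlapped. The KO response of Smc4 differed from the WT response by -0.26 (SE 0.0588, adjusted p = 0.00125), the smallest difference of the genes that passed. Ncaph, a subunit of condensin I, had 5.35 ± 0.547 CPM in WT-SD, 2.69 ± 0.588 in WT-TGF, 18.7 ± 1.16 in KO-SD and 2.76 ± 0.098 in KO-TGF, and its responses differed by -1.76 (SE 0.197, adjusted p = 2.76e-08). With TGF-β its genotypes overlapped, and the 95% interval of that difference was -0.29 to 0.37 on the log2 scale. Of the condensin subunits outside the 52 genes, Ncapg2 of condensin II had 13.6 ± 0.278 CPM in WT-SD against 34.1 ± 1.46 in KO-SD, while Ncaph2, the most abundant of them by CPM, had 51.9 ± 3.24 and 59.9 ± 2.87 CPM.

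The 11 centromere and kinetochore genes were all higher in KO-SD (log2 1.08 to 2.36), against 35.6% of all genes tested, and 5 of them were higher in KO-TGF, against 28.9%. Of the 11, 9 passed the RPKM limit through KO-SD alone, the group where they are high, and Cenpe and Spc25 passed it in WT-SD too. Cenpf, a large protein of the outer kinetochore, had 11.9, 10.9 and 13.1 CPM in WT-SD, 2.89, 3.72 and 3.76 in WT-TGF, 51.1, 53.8 and 54.4 in KO-SD and 7.0, 5.45 and 7.03 in KO-TGF. Cenpe, a kinetochore motor, had 12.2 ± 2.11 CPM in WT-SD, 4.58 ± 0.587 in WT-TGF, 48.7 ± 0.862 in KO-SD and 7.77 ± 0.461 in KO-TGF. Both fell by more than 2-fold in each genotype, and no libraries of different groups overlapped. Nuf2, of the NDC80 complex that grips microtubules, had the largest genotype difference of the 50 genes in serum depletion, 5.12-fold (log2 2.36, SE 0.118, adjusted p = 4.95e-17), from 3.51 ± 0.982 (WT-SD) to 17.9 ± 0.769 CPM (KO-SD).

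Spc24, of the same NDC80 complex, had the most negative difference between responses. It had 0.806, 0.808 and 0.85 CPM in WT-SD, 0.806, 0.538 and 0.545 in WT-TGF, 3.45, 3.29 and 3.9 in KO-SD and 0.759, 0.324 and 0.426 in KO-TGF. KO-SD stood apart, while WT-TGF overlapped with both WT-SD and KO-TGF. The responses differed by -2.43 on the log2 scale (SE 0.421, adjusted p = 4.07e-05), on 14, 6 and 8 counts in the KO-TGF libraries. Cenpk, a subunit of the constitutive centromere network, had the least negative WT response, -0.23 with a 95% interval of -0.67 to 0.22, and fell in KO by 1.47 on the log2 scale (SE 0.179, adjusted p = 1.25e-08).

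Among the 6 kinases and passenger complex genes all fell in both genotypes, against 33.4% (WT) and 37.8% (KO) of all genes tested. For 6 of 6 the KO response was the more negative, against 18.7% of all genes. Of the 6, 2 passed the RPKM limit through KO-SD alone, Aurkb among them, which favored a larger fall in KO. Plk1, the polo-like kinase of centrosomes and kinetochores, had 3.72, 4.0 and 4.21 CPM in WT-SD, 1.52, 1.48 and 1.63 in WT-TGF, 13.6, 14.2 and 14.6 in KO-SD and 2.93, 2.32 and 2.34 in KO-TGF, without overlap. Aurkb, the kinase of the passenger complex, had the largest fall of all 50 genes in KO, from 12 ± 0.752 to 1.16 ± 0.10 CPM, or to 9.73% (log2 -3.36, SE 0.15, adjusted p = 7.98e-19). In WT it fell from 2.63 ± 0.338 to 0.85 ± 0.248 CPM, and the responses differed by -1.74 (SE 0.305, adjusted p = 4.78e-05). Incenp, the scaffold of the same complex, moved less. It had 14.3, 16.5 and 17.4 CPM in WT-SD, 12.8, 11.6 and 12.7 in WT-TGF, 35.6, 32.9 and 31.8 in KO-SD and 12, 11.7 and 12.2 in KO-TGF. Its libraries with TGF-β overlapped between genotypes, with a log2 difference of -0.05 and a 95% interval of -0.21 to 0.12.

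Of the 4 checkpoint genes, all fell with TGF-β in both genotypes, against 33.4% (WT) and 37.8% (KO) of all genes tested. All 4 were higher in KO-SD, against 35.6% of all genes, and 1, the kinase gene Ttk, was called higher in KO-TGF, against 28.9%. Ttk passed the RPKM limit through KO-SD alone, which favored a higher value in KO-SD. Mad2l1 encodes MAD2, which holds back the anaphase-promoting complex. In WT it fell from 10.1 ± 0.417 to 8.4 ± 0.161 CPM (log2 -0.26, SE 0.0825, adjusted p = 0.00549), and in KO from 21.4 ± 0.472 to 9.6 ± 0.805 CPM, or to 45%. Bub1b, for the checkpoint protein BUBR1, fell in WT from 7.93 ± 0.754 to 2.88 ± 0.555 CPM, and in KO from 22 ± 2.3 to 3.21 ± 0.391 CPM. The responses of both genes differed between genotypes, by -0.89 for Mad2l1 (adjusted p = 2.19e-07) and by -1.32 for Bub1b (adjusted p = 4.52e-06).

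The mitotic kinesins are motor proteins that slide, cross-link or shorten microtubules. The 7 tested fell in both genotypes, against 33.4% (WT) and 37.8% (KO) of all genes tested. All 7 were higher in KO in both conditions, against 35.6% of all genes in serum depletion and 28.9% with TGF-β. Of the 8 kinesins, 3 passed the RPKM limit through KO-SD alone. Kif11, which pushes the spindle poles apart, had 8.46, 7.45 and 7.96 CPM in WT-SD, 2.28, 3.14 and 2.62 in WT-TGF, 31.6, 35 and 31.7 in KO-SD and 4.18, 4.54 and 4.21 in KO-TGF. Kif20a, a motor of cytokinesis, had 10.0 ± 1.63 CPM in WT-SD, 4.93 ± 0.376 in WT-TGF, 39.9 ± 1.48 in KO-SD and 7.19 ± 0.0774 in KO-TGF. Neither gene's groups overlapped. Kif2c, which shortens microtubules at the centromere, had the largest fall in WT, to 17.3% (log2 -2.53, SE 0.318, adjusted p = 2.65e-08), on 5, 3 and 16 counts in the WT-TGF libraries. It also had the largest genotype difference with TGF-β, 2.82-fold (log2 1.5, SE 0.392, adjusted p = 0.00169). Both rest in size on WT-TGF replicate 3, without which Kif2c fell to 8.54% in WT and was 5.7-fold higher in KO-TGF. Without that library its difference between responses turned from -0.60 to 0.413, and neither value passed the test. Kif18a, under RPKM 1 in every library, had 2.27 ± 0.0741 CPM in WT-SD, 1.45 ± 0.154 in WT-TGF, 6.34 ± 0.312 in KO-SD and 1.79 ± 0.181 in KO-TGF and was higher in KO-SD in the fit of all genes with a count (log2 1.48, SE 0.141, adjusted p = 2.36e-24).

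In the cyclin-CDK1 and anaphase group 8 of 9 genes were tested. All 8 fell in both genotypes, against 33.4% (WT) and 37.8% (KO) of all genes tested. Of the 8, 2 passed the RPKM limit through KO-SD alone, which favored a larger fall in KO. Ccna2, cyclin A2, had 10.8, 11 and 13.2 CPM in WT-SD, 3.46, 3.49 and 2.97 in WT-TGF, 51.3, 49.1 and 48.1 in KO-SD and 6.13, 5.72 and 7.35 in KO-TGF, with no overlap. Pttg1 had 20.2, 18 and 23.1 CPM in WT-SD, 15.8, 14.3 and 17.5 in WT-TGF, 17.3, 16.3 and 19 in KO-SD and 11.8, 12.8 and 12.8 in KO-TGF. Its WT-SD and KO-SD libraries overlapped. Pttg1 fell with TGF-β by 0.37 on the log2 scale in WT (SE 0.081, adjusted p = 0.000192) and by 0.49 in KO (SE 0.0904, adjusted p = 1.72e-05). The responses differed by -0.12, with a 95% interval of -0.36 to 0.12. In KO-SD its log2 difference from WT-SD was -0.22 (SE 0.0794, adjusted p = 0.0187), a call that was lost without WT-SD replicate 3 (adjusted p = 0.206) or without KO-SD replicate 2 (adjusted p = 0.0952). In KO-TGF it was -0.34 (SE 0.0923, adjusted p = 0.00213). Cdc25c, the phosphatase that activates CDK1, was under RPKM 1 in every library. It had 0.92 ± 0.198 CPM in WT-SD, 0.312 ± 0.0813 in WT-TGF, 3.23 ± 0.0592 in KO-SD and 0.556 ± 0.267 in KO-TGF and fell in both genotypes in the fit of all genes with a count. Ccnb1, Ccnb2, Kif22 and Kif4, named here for their copies and not for their values, each have an annotated pseudogene, and reads that align equally well to both were not counted, so their levels are uncertain.

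The 6 spindle assembly and cytokinesis genes fell in both genotypes, against 33.4% (WT) and 37.8% (KO) of all genes tested. They were higher in KO in both conditions, against 35.6% of all genes in serum depletion and 28.9% with TGF-β. In serum depletion they lay within a narrow range of 1.83 to 2.0 (log2). Anln encodes anillin, which organizes the contractile ring. It had 15.4, 17.3 and 16.5 CPM in WT-SD, 5.97, 5.38 and 6.29 in WT-TGF, 59.4, 63.7 and 61.6 in KO-SD and 10.8, 10.8 and 11.4 in KO-TGF. The 4 groups were apart. Tpx2, a spindle assembly factor that activates Aurora A, had 14.3 ± 2.0 CPM in WT-SD, 8.74 ± 0.40 in WT-TGF, 50.6 ± 0.286 in KO-SD and 15.4 ± 0.698 in KO-TGF, and its WT-SD and KO-TGF libraries overlapped.

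The known regulators of late cell cycle promoters moved in part. Foxm1, the forkhead factor of late cell cycle genes, had 14.1 ± 1.83 CPM in WT-SD, 9.28 ± 0.31 in WT-TGF, 33 ± 3.21 in KO-SD and 8.5 ± 0.202 in KO-TGF. It was higher in KO-SD (log2 1.23, SE 0.0743, adjusted p = 4.71e-15) and fell with TGF-β in both genotypes, with responses that differed by -1.35 (SE 0.132, adjusted p = 1.63e-09). Mybl2, which encodes B-MYB, had 1.71 ± 0.24 CPM in WT-SD, 1.15 ± 0.162 in WT-TGF, 5.17 ± 0.929 in KO-SD and 0.914 ± 0.181 in KO-TGF. Lin54, the MuvB subunit that reads the CHR, had 26.4 ± 1.24 CPM in WT-SD, 17.5 ± 1.35 in WT-TGF, 31.1 ± 1.75 in KO-SD and 19.3 ± 1.19 in KO-TGF. Rbl2, the pocket protein p130 of the repressive DREAM complex, was less abundant in KO-SD, with 121 ± 3.06 CPM in WT-SD against 106 ± 4.05 in KO-SD (log2 -0.19, SE 0.0337, adjusted p = 1.91e-05). E2f4, its DNA-binding partner, rose with TGF-β, in WT from 28.2 ± 0.326 to 37.3 ± 0.433 CPM, and in KO from 27.5 ± 1.39 to 39.9 ± 2.39 CPM. Of the 22 regulators tested, 12 were higher in KO-SD and 1 was lower, where 35.6% and 21.5% of all genes tested were. How many of the 22 passed the RPKM limit through KO-SD alone was not counted.

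Of the CDK inhibitors, Cdkn1a and Cdkn2a were lower in KO-SD and Cdkn2c was higher. Cdkn1a, for p21, had 738 to 760 CPM in WT-SD, 857 to 878 in WT-TGF, 554 to 569 in KO-SD and 642 to 648 in KO-TGF. No groups overlapped. It was lower in KO-SD (log2 -0.41, SE 0.0221, adjusted p = 2.31e-16) and in KO-TGF (-0.43, SE 0.0221, adjusted p = 1.05e-16). Its responses to TGF-β differed between genotypes by -0.01 (SE 0.0312, adjusted p = 0.827). Cdkn2a, whose counts join p16 and p19Arf, had 50.3 ± 1.49 CPM in WT-SD against 39.4 ± 3.6 in KO-SD (log2 -0.35, SE 0.0487, adjusted p = 2.47e-07). Cdkn2c went the other way, with a log2 difference of 0.60 in KO-SD. Of 14 genes of cell cycle exit and p53 response tested, 9 were lower in KO-SD, against 21.5% of all genes tested, and 3 were higher, against 35.6%, with a median log2 fold change of -0.17.

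Other mitotic genes were read from 6 lists of neighboring machinery. They were counted among genes past the RPKM limit, which a high KO-SD value alone can meet. How many passed only that way was not counted, nor were the lists counted in the fit of all genes with a count. The counts are to be read against 35.6% of all genes tested that were higher and 21.5% that were lower in KO-SD, and against 33.4% that fell with TGF-β in WT and 37.8% in KO. With TGF-β 4509 of the 11478 genes tested rose in WT and 4174 in KO. Of 29 other spindle and cytokinesis genes tested, 29 were higher in KO-SD (median log2 1.70). With TGF-β 22 of them fell and 3 rose in WT, and 26 fell and 1 rose in KO. Iqgap3 had the largest changes with TGF-β there, -2.28 in WT and -3.61 in KO (log2). Of 27 other kinetochore and checkpoint genes 26 were higher in KO-SD, with a median of 0.67, and the 1 lower was Zwint, with 102 ± 3.1 CPM in WT-SD against 86.8 ± 2.19 in KO-SD. Knl1, the scaffold for checkpoint proteins, had a log2 fold change of 2.20 in KO-SD. Of the 15 cohesin genes 11 were higher in KO-SD and 1 was lower, and their median was 0.16. Rad21, the cleavable subunit of cohesin, had 204 ± 5.04 CPM in WT-SD against 219 ± 6.2 in KO-SD. Esco2, an acetyltransferase of cohesin in S phase, had the largest change of that list in KO-SD, 2.16. The 15 anaphase-promoting complex genes tested also had a median of 0.16, with 9 higher and 0 lower. Of 12 regulators of mitotic entry and exit 11 were higher in KO-SD, with a median of 0.37, and the 3 other condensin subunits were all higher. With TGF-β, 13 of the 27 kinetochore and checkpoint genes fell and 8 rose in WT, with 19 and 4 in KO. Of the 15 cohesin genes 9 fell and 3 rose in WT, with 10 and 3 in KO. Of the 15 anaphase-promoting complex genes 6 fell and 5 rose in WT, with 8 and 4 in KO. Of the 12 entry and exit regulators 5 fell and 7 rose in WT, with 6 and 5 in KO. Of the 3 condensin subunits 2 fell in WT and 3 in KO, and 0 rose.

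The 36 DNA replication genes tested, which serve S phase, moved the same way with smaller medians, except in KO-TGF against WT-TGF. In that comparison 10 were higher and 3 lower, with a median of 0.12 (log2), where 28.9% and 26.3% of all genes tested were. Of the 36, 35 were higher in KO-SD, against 35.6% of all genes tested, with a median of 0.96 (log2) beside 1.94 for the mitotic genes. How many of the 36 passed the RPKM limit through KO-SD alone, which favors a higher value there, was not counted. With TGF-β 35 fell in KO (median -1.12), against 37.8% of all genes, and 23 in WT (median -0.37), against 33.4%. The difference between responses was negative for 31 of 36, against 18.7% of all genes tested, with a median of -0.80. Pole, the catalytic subunit of DNA polymerase epsilon, had the largest genotype difference, 1.87 on the log2 scale in serum depletion. Rrm1, the large subunit of ribonucleotide reductase and the gene of that list with the highest mean CPM, was the 1 lower in KO-SD, with 281 ± 5.16 CPM in WT-SD against 238 ± 9.51 in KO-SD.

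Markers of other cell types differed between genotypes as well. The 11 macrophage markers summed to 36.5 to 39.5 CPM in WT-SD, 20.2 to 24.2 in WT-TGF, 8.15 to 9.78 in KO-SD and 2.38 to 2.72 in KO-TGF, and Adgre1, which defines mouse macrophages, had 7.54 ± 0.0543 CPM in WT-SD and no count in KO-SD or KO-TGF. The 9 tubular markers summed to 44.5 to 46.8 CPM in WT-SD, 17.0 to 18.9 in WT-TGF, 15.4 to 15.8 in KO-SD and 11.9 to 13.6 in KO-TGF, mostly from Lrp2, and Umod, Aqp2 and Slc34a1 had no count in any library. The 7 podocyte markers summed to 856 to 867 CPM in WT-SD, 1848 to 1910 in WT-TGF, 649 to 666 in KO-SD and 1912 to 1935 in KO-TGF, with Nphs1 at most 0.0474 CPM in any library, and the 7 endothelial markers summed to at most 1.21 CPM in any library. Of 5 podocyte markers tested, 3 fell and 2 rose with TGF-β in each genotype, where 33.4% (WT) and 37.8% (KO) of all genes tested fell. In KO 4 of the 5 were lower and 1 was higher in both conditions. Their median log2 fold changes were -1.55 in serum depletion and -1.50 with TGF-β. Of all genes tested, 21.5% and 26.3% were lower there. The part of these differences in the values above was not tested.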

How the data were processed

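RNA-seq libraries of poly(A) RNA from WT and lncMGC-KO5 MMC were compared, 3 in each of 4 groups, with groups taken from the labels. Per the study's methods, single-end reads were aligned to mm10 with TopHat and counted on the gene strand with HTSeq. The values deposited by the authors are raw counts per gene, without normalization. The members and lists were chosen with earlier results of these data known. Counts were tested with edgeR 4.0.16 in R 4.3.3 (limma 3.58.1) by the quasi-likelihood test, with TMM scaling and all 12 libraries in 1 fit, over 11478 genes with RPKM >1 in at least 1 library, and p-values were Benjamini-Hochberg adjusted at FDR <5%. The 4 group comparisons and the difference between the TGF-β responses made 5 contrasts. A second fit held every gene with a count. A count of 3, the floor, was 0.131 to 0.151 CPM, which covers counting error. The heat map used a pseudocount of 0.1 CPM. With 3 against 3, an exact permutation test cannot go below p = 0.1. Named genes were those with the 2 highest mean CPM of each role group, the extremes of each contrast, those against the majority, and 7 regulators. Of the other lists, the 2 genes with the highest mean CPM and the largest change of each contrast could be named. Promoter windows came from RefSeq (GRCm38.p6). The scripts were tested on simulated data. Alternatives were library size scaling, DESeq2 1.42.0, the likelihood ratio test, other filters, the replicate block, the compared groups alone and leaving out each library. The value of 1 marker gene is not reported here.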

Additional observations from a re-analysis of the deposited data

Results flagged for a closer look

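The TGF-β response differed between genotypes by the test of the difference itself (quasi-likelihood test of edgeR, adjusted by Benjamini-Hochberg) for 44 of the 50 mitotic genes, against 18.7% of all genes tested that were more negative in KO. All differences below are log2 responses in KO minus WT. Among the checkpoint genes the difference was -0.891 for Mad2l1 and -1.32 for Bub1b. Among kinases and passenger proteins it was -1.11 for Incenp, -1.11 for Plk1 and -1.74 for Aurkb. At centromeres and kinetochores it was -1.24 for Cenpf, -1.23 for Cenpe, -1.24 for Cenpk, -1.39 for Nuf2 and -2.43 for Spc24. For the kinesins it was -1.44 for Kif20a and -1.36 for Kif11, and for Ccna2 it was -1.14. The condensin and topoisomerase genes ran from -0.255 for Smc4 over -1.16 for Top2a to -1.76 for Ncaph. Anln and Tpx2 both had -1.0, Mki67 had -1.09 and Melk -1.7. The KO-SD level that each KO response starts from was itself higher than the WT-SD level for every one of these genes. Of the genes named, Aurkb, Cenpf, Cenpk, Nuf2, Spc24 and Melk passed the RPKM limit through KO-SD alone, which favored a more negative difference. In the fit of all genes with a count, which does not depend on that limit, 48 of 52 were negative, against 12.5% of all genes.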

How the results depend on the processing

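Of 110 values of single mitotic genes under 2030 alternatives, 2023 kept direction and side of the threshold, 4 reversed, 2 lost a call and 1 gained one. The reversals were the difference between responses of Kif2c, 0.413 without WT-TGF replicate 3 (range over left-out libraries -1.02 to 0.413), and Ncaph in KO-TGF against WT-TGF, which was -0.0942 with library size scaling, -0.0687 without WT-TGF replicate 2 and -0.0255 when replicate 3 of WT-TGF was left out (highest 0.231). None of these passed the test. The call of Pttg1 in KO-SD was lost without WT-SD replicate 3 (-0.124) or KO-SD replicate 2 (-0.172), and Mad2l1 in KO-TGF gained one without KO-TGF replicate 3 (0.261). Library size scaling moved the medians of all genes to -0.16 with TGF-β in WT, -0.23 in KO and -0.12 between KO-TGF and WT-TGF. The medians of the mitotic genes moved with them to -1.57, -2.72 and 0.552, and 2 genes in place of 1 were lower in KO-TGF. With the compared groups alone, 21 of the genes were tested in KO-TGF against WT-TGF and 17 were higher, in place of 35 of 50, since fewer genes passed the limit there.

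Leaving out 1 library gave 47 to 48 genes that fell in WT (medians -1.44 to -1.32) and 49 to 50 in KO (-2.53 to -2.47). It gave 48 to 49 genes higher in KO-SD (1.89 to 2.02), with 0 to 1 lower, and 32 to 37 higher in KO-TGF (0.674 to 0.731), with 1 lower each time. The difference between responses was negative for 41 to 47 genes (-1.23 to -1.11). The same replicate numbers did not pair the libraries: over 18 pairs the correlation of deviations ran from -0.0285 to 0.0866, and 10 were best with their own number. With the replicate block, 48 genes fell in WT, 50 fell in KO, 49 were higher in KO-SD, 36 were higher in KO-TGF and 47 had the more negative response in KO. At the lowest levels depth limits precision, since Kif2c and Spc24 had under 20 counts in some libraries.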
